A study of Mus musculus with 25 samples.

Results

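Hddc3, Ngrn, Myo7a and Rnf169 are 4 of the 20362 genes measured in brain cells captured by CD11b from WT and Bmal1 cKO mice at a young and an old age. They were chosen by their measured level, which differed by genotype label on chromosome 7, far upstream of Arntl, the gene that encodes BMAL1. The choice gave no numerical threshold and used the comparison of cKO with WT mice at each age, so for the 4 genes that comparison is described below without a p-value. The change with age, and the genotype comparison of the genes beside them, were not used in the choice and were tested. The change with age uses the same mice as the choice, so its p-values are not independent of it.

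BMAL1 forms a dimer with CLOCK that binds E-box motifs and drives the daily rhythm of transcription. HDDC3, also called MESH1, is an enzyme of the HD domain family that removes a phosphate from NADPH and is known for its part in ferroptosis. Neugrin, the product of Ngrn, acts in the assembly of the large subunit of the mitochondrial ribosome. MYO7A is an actin motor, myosin VIIA, best known in the hair cells of the inner ear and in the retina. RNF169 binds ubiquitinated histone at DNA double-strand breaks and limits the recruitment of the repair factor encoded by Trp53bp1.

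Polyadenylated RNA was sequenced from 25 mice, 1 library per mouse, all male littermates with tissue taken between ZT2 and ZT4. WT mice carried CD11b cre alone and cKO mice carried CD11b cre;Bmal1 lox/lox, so that every mouse had the cre driver, which is active in microglia and in other myeloid cells. Among the young mice 6 were WT and 6 cKO, and among the aged mice 6 were WT and 7 cKO. The labels give no age in months. The floxed allele came from a B6.129S4(Cg)-Arntl line on a C57BL/6 background, and it sits on the chromosome that carries the 4 genes, so that loss of BMAL1 and chromosome 7 sequence inherited with the floxed allele cannot be told apart by this design.

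The libraries held 6852660 to 17874398 counts. Expression is given as CPM, the estimated count scaled to library size with TMM factors. Genes were called at a Benjamini-Hochberg adjusted p below 0.1 in edgeR's quasi-likelihood test together with a fold change above 1.5. Arntl itself had 13.4 to 17.5 CPM in the young WT group, 10.6 to 18.3 CPM (median 15.0) in the young cKO group, 18.0 to 26.0 CPM (median 19.9) in the aged WT group and 18.0 to 34.4 CPM (median 25.3) in the aged cKO group. Neither age thus had less Arntl in libraries labelled cKO (log2 fold change −0.01 ± 0.149 (SE) in young and 0.28 ± 0.144 in aged mice, adjusted p = 1 and 0.881, edgeR). These counts cover the whole gene and cannot show a deleted exon, and the directions below rest on the genotype labels.

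The cell type label was checked against marker genes, because it bears on every aged value below. The summed level of 10 microglia markers (P2ry12, Tmem119 and others) was 10200 to 17500 CPM in young WT and 17500 to 22700 CPM in young cKO mice, but 156 to 4910 CPM in aged WT and 121 to 5260 CPM in aged cKO mice. All 10 were called lower in aged than in young mice of either genotype. The sum of 6 astrocyte markers was 225 to 1640 CPM over the young and 4770 to 19400 CPM over the aged mice, with all 6 called higher in both genotypes, as were 7 of 7 neuron markers and 5 of 6 oligodendrocyte markers. The defining microglia markers were detected in every aged mouse, at no less than 1.60 CPM (Gpr34), while markers of other brain cells were abundant there. In bulk RNA, fewer cells of a type and less RNA per cell cannot be told apart. No gene of the 11 marker lists was called by genotype at either age.

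**Figure D1:**
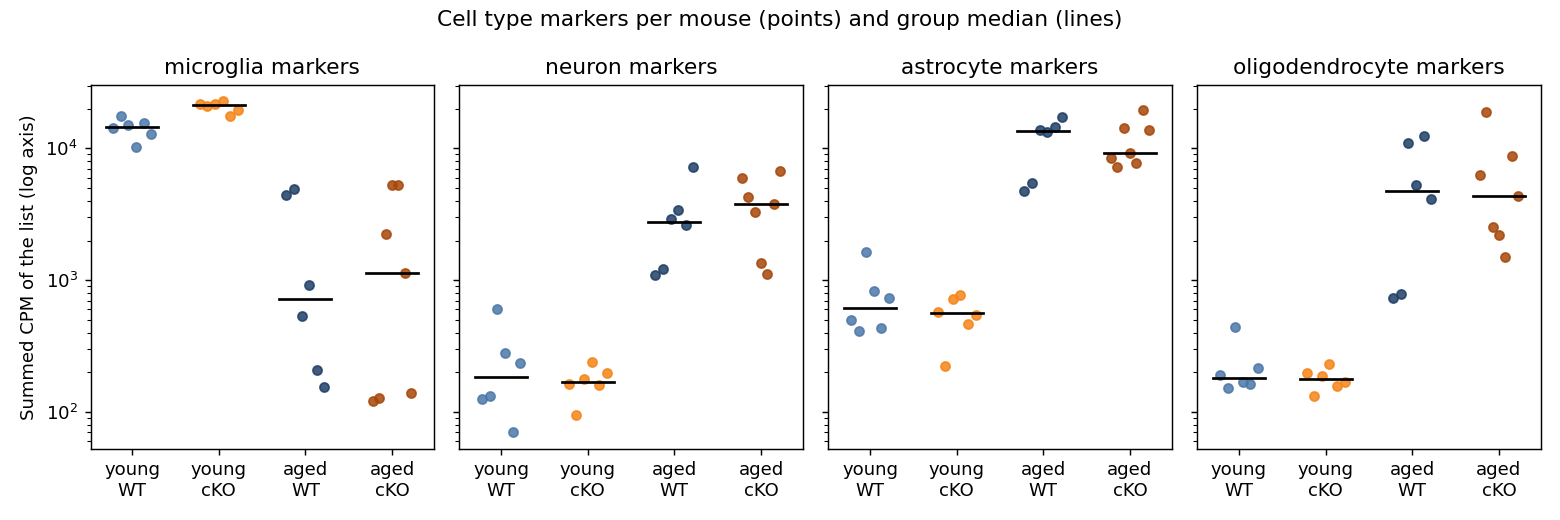
Summed CPM (log axis) of 4 lists of cell type markers, with 1 point per mouse and lines at the group medians. Microglia markers lay at 10200 CPM or more in every young mouse and at 5260 CPM or less in every aged mouse, while neuron and astrocyte markers were higher in all aged than in all young mice.

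The promoters of the 4 genes are shown because BMAL1 acts through E-boxes, and they let a reader see what sequence lies at each start. Each run is from RefSeq on GRCm38.p6, covers 250 bases before and 50 after a gene start, and is written 5′ to 3′ on the strand of the gene in lower case, with a match to the E-box CACGTG or the variant CACGTT, searched on both strands, in capitals. The runs lie at chr7:80342887-80343186 (plus strand, Hddc3), chr7:80260965-80261264 (plus strand, Ngrn), chr7:98119444-98119743 (minus strand, Myo7a, the first of its 2 starts) and chr7:99980409-99980708 (minus strand, Rnf169).
Hddc3: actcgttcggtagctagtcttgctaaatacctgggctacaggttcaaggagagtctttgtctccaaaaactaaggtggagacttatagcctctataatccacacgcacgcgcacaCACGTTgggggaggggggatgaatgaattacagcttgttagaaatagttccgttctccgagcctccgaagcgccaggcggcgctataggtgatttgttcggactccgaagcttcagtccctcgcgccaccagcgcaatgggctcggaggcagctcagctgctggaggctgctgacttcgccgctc
Ngrn: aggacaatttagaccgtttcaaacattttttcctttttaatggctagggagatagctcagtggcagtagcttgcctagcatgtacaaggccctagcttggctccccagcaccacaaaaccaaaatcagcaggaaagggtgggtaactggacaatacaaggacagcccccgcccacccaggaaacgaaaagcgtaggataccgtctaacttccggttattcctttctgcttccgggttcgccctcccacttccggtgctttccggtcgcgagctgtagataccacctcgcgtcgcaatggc
Myo7a: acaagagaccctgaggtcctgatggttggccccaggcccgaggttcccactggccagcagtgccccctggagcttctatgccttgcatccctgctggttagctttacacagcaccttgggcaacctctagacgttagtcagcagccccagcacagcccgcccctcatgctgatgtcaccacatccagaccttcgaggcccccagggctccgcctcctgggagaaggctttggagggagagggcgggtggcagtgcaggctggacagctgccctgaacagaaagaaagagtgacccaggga
Rnf169: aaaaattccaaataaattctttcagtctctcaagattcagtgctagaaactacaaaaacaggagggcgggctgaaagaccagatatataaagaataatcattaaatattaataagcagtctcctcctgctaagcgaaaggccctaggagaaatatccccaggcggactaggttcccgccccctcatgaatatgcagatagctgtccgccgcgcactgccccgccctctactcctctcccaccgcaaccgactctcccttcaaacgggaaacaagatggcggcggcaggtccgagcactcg

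The Hddc3 promoter held 1 match, to CACGTT, which began 135 bases before the start. No match to either motif was present in the windows of Ngrn, Rnf169 or either start of Myo7a. Among all 32851 promoters of the same length, 7.15% held CACGTG, 4.68% held CACGTT and 11.4% held one or the other. A match in letters is not a measured binding site. The G and C content of the printed windows was 55.0% for Hddc3, 52.3% for Ngrn, 62.0% for Myo7a and 49.7% for Rnf169.

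On chromosome 7 of GRCm38, Ngrn (ENSMUSG00000047084, 80261215 to 80265374, plus strand) and Hddc3 (ENSMUSG00000030532, 80343104 to 80350547, plus strand) both lay 32.9 Mb before the start of Arntl. Myo7a (ENSMUSG00000030761, 98051060 to 98119524, minus strand) lay 15.2 Mb and Rnf169 (ENSMUSG00000058761, 99920254 to 99980448, minus strand) 13.3 Mb before it. Per kb of summed exon length, Rnf169 had the highest mean level of the 4 genes in every group, from 11.6 CPM per kb in young WT to 15.8 in aged WT mice. Hddc3 had the lowest mean in 3 groups, at 0.862 CPM per kb in young WT mice, but at 7.15 CPM per kb in aged cKO mice it was above Ngrn (6.52) and Myo7a (1.80).

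Hddc3 was higher in libraries labelled cKO at both ages. It ran from 2.47 to 4.24 CPM (median 3.12) in young WT and from 6.86 to 14.1 CPM (median 9.61) in young cKO mice. In aged mice Hddc3 ran from 3.74 to 12.2 CPM (median 8.56) in WT and from 14.6 to 45.6 CPM (median 25.6) in cKO mice. Every cKO mouse was thus above every WT mouse of its age. The fitted log2 fold change of Hddc3 was 1.62 ± 0.296 (SE) in the young and 1.74 ± 0.286 in the aged mice, which is 3.07-fold and 3.35-fold, and the aged change minus the young change was 0.13 ± 0.407.

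The Hddc3 counts behind these levels were small in WT mice, 24 to 63 in the young and 33 to 104 in the aged, against 102 to 229 and 132 to 581 in the cKO mice. The order of the group means was young WT (3.25 ± 0.758 CPM, SD, n = 6), aged WT (8.07 ± 3.41, n = 6), young cKO (9.99 ± 2.48, n = 6) and aged cKO (27.0 ± 10.9, n = 7). Aged WT overlapped with the groups next to it in that order, and aged cKO overlapped with no other group. Within aged WT, Hddc3 was lowest in replicates 1 and 2 (3.74 and 4.67 CPM), the mice with the highest microglia marker sums of that group (4430 and 4910 CPM). In aged cKO mice, replicates 4 and 5, with marker sums of 5250 and 5260 CPM, had 25.6 and 29.1 CPM of Hddc3. With the microglia marker level (mean log2 CPM of the 10 markers) as a covariate, the aged log2 fold change of Hddc3 was 1.72.

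Ngrn was higher in cKO than in WT libraries of young mice and somewhat lower in those of aged mice. The young values ran from 7.50 to 12.8 CPM (median 10.2) in WT and from 13.9 to 19.1 CPM (median 15.4) in cKO mice, with no overlap. The aged values ran from 11.6 to 17.1 CPM (median 14.4) in WT and from 9.43 to 14.3 CPM in cKO mice. Of the 7 cKO mice of that age, 5 were under the lowest WT mouse, and the ranges overlapped. The log2 fold change of Ngrn was 0.69 ± 0.145 (SE) in young mice, 1.61-fold, and −0.35 ± 0.140 in aged mice, and their difference was −1.04 ± 0.202. The order of the Ngrn means was young WT (9.95 ± 1.79 CPM, SD, n = 6), aged cKO (11.2 ± 1.68, n = 7), aged WT (14.3 ± 1.82, n = 6) and young cKO (16.0 ± 2.01, n = 6), in which each group overlapped with the next.

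Myo7a differed by genotype label in aged mice, where it was lower in cKO. It ran from 63.1 to 91.6 CPM (median 85.9) in young WT and from 59.8 to 83.0 CPM (median 70.7) in young cKO mice, ranges that overlapped. In aged mice Myo7a ran from 42.9 to 80.7 CPM (median 49.8) in WT and from 8.21 to 25.9 CPM (median 11.8) in cKO mice. Each of the 7 cKO mice was under the lowest WT mouse, on 96 to 254 counts against 239 to 791. The log2 fold change of Myo7a was −0.21 ± 0.238 (SE) in young and −1.81 ± 0.235 in aged mice, which left aged cKO at 0.285 of the aged WT level, and the difference between ages was −1.60 ± 0.333.

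The mean level of Myo7a was lowest in aged cKO (15.4 ± 7.37 CPM, SD, n = 7), which overlapped with no other group, followed by aged WT (53.9 ± 14.2, n = 6) then young cKO (70.7 ± 8.88, n = 6) and young WT (81.9 ± 10.6, n = 6), each of which overlapped with the next. Among aged cKO mice the 3 with the highest microglia marker sums, replicates 3, 4 and 5 (2240, 5250 and 5260 CPM), also had the highest Myo7a, at 17.8, 25.9 and 24.4 CPM. Aged WT replicates 1 and 2, with marker sums of 4430 and 4910 CPM, had 50.7 and 57.3 CPM of Myo7a. Aged WT replicate 6, with a marker sum of 156 CPM, had the highest Myo7a of the aged mice, 80.7 CPM. With the microglia marker level as a covariate, the aged log2 fold change of Myo7a by genotype was −1.93. In the same aged comparison, the marker sums of endothelial cells ran from 385 to 3490 CPM in WT and from 151 to 773 CPM in cKO mice (median log2 fold change of 5 markers −1.84, 5 of 5 at an unadjusted p below 0.05, 0 called), and those of mural cells from 153 to 965 and from 36.4 to 475 CPM. The part of these cells in the differences of Hddc3 and Myo7a was not tested.

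Rnf169 showed the smallest difference by genotype label of the 4 genes in young mice, and its groups overlapped at both ages. It ran from 69.3 to 125 CPM (median 85.2) in young WT and from 79.3 to 98.1 CPM (median 89.7) in young cKO mice. In aged mice Rnf169 ran from 98.6 to 150 CPM (median 121) in WT and from 62.3 to 120 CPM (median 93.9) in cKO mice, with 4 of the 7 cKO mice below all WT mice. The log2 fold change was 0.02 ± 0.158 (SE) in young and −0.39 ± 0.152 in aged mice. In the order of means, young WT (88.4 ± 19.4 CPM, SD, n = 6), young cKO (89.8 ± 7.65, n = 6), aged cKO (92.1 ± 19.7, n = 7) and aged WT (121 ± 17.5, n = 6), each group overlapped with the next. The data of Rnf169 therefore go against a description of all 4 genes as separated by genotype.

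**Figure D2:**
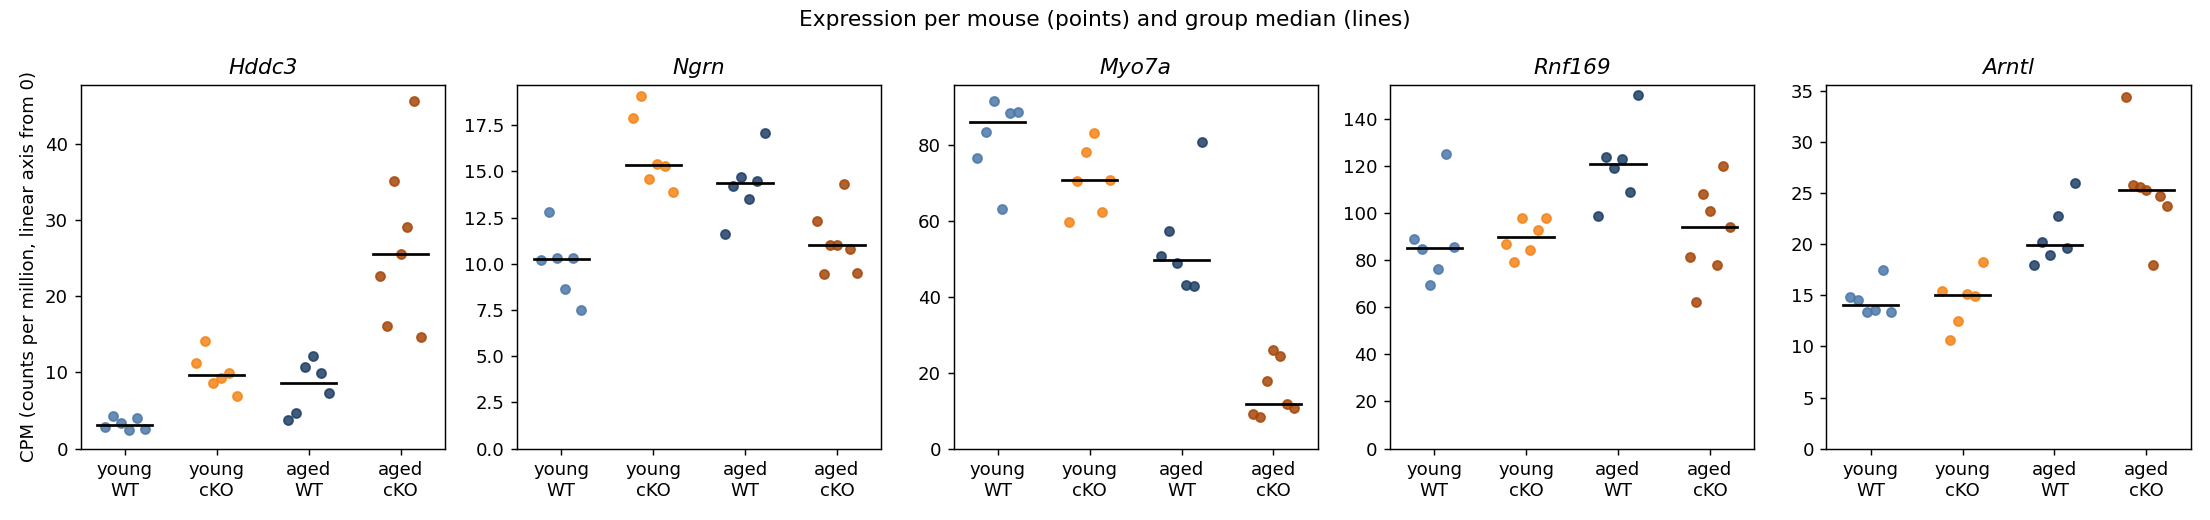
CPM of Hddc3, Ngrn, Myo7a, Rnf169 and Arntl (linear axes from 0), with 1 point per mouse and lines at the medians of the 4 groups. Hddc3 separates the genotypes at both ages, Ngrn in the young and Myo7a in the aged mice, while the groups of Rnf169 and Arntl overlap within each age.

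Set against the thresholds used for other genes, Hddc3 in the young and Hddc3 and Myo7a in the aged mice lay past them, 1 and 2 of the 4 genes, beside 0.0393% of all genes in young and 0.0491% in aged mice. The ranges of the genotypes did not overlap for 2 of the 4 genes at each age, Hddc3 and Ngrn in the young and Hddc3 and Myo7a in the aged, beside 1.54% and 0.123% of all genes. These counts follow from how the 4 genes were chosen, and nothing is read from them.

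Animal names carry a number, and the labels do not say what it means. Without its last digit, several animals share a number, and number 63 alone held both genotypes. Its WT mouse, young WT replicate 1, had 2.85 CPM of Hddc3 against 9.30, 9.93 and 6.86 CPM in its cKO mice, young cKO replicates 4, 5 and 6. For Ngrn the WT mouse had 10.2 CPM and the same cKO mice had 15.4, 15.3 and 13.9 CPM. For Myo7a and Rnf169 the WT mouse, at 76.5 and 89.0 CPM, lay inside the range of those cKO mice. With the number as a block in a fit of the 12 young mice, added after the data were seen and informed on genotype by number 63 alone, the young log2 fold changes were 1.56 for Hddc3, 0.50 for Ngrn, −0.15 for Myo7a and −0.016 for Rnf169. Each aged number held 1 genotype, so no comparison within a number could be given for the aged mice. The aged WT mice of number 2 had 3.74 and 4.67 CPM of Hddc3 and those of number 3 had 9.87 to 12.2 CPM.

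The genes beside the 4 were measured to see whether the differences extended along the chromosome. The 5 tested genes on each side of each of them made 34 other genes. None of the 34 was called by genotype at either age in edgeR's test, with 0 at an unadjusted p below 0.05 in young and 4 in aged mice, and DESeq2 also called 0 and 0, beside 0.0393% and 0.0491% of all genes called in edgeR's test. Their log2 fold changes ran from −1.05 (Lipt2) to 0.64 (Ttll13) in young mice with a median of 0.18, beside 0.03 over all genes. In aged mice they ran from −0.98 (Kcne3) to 1.16 (F730035P03Rik) with a median of 0.03, beside −0.02. The 4 with an unadjusted p below 0.05 in aged mice were Crtc3 (−0.40), a coactivator of CREB, Unc45a (−0.49), Pak1 (0.46) and Rsf1 (0.35), a chromatin remodelling factor. The ranges of the genotypes did not overlap for 2 of the 34 in young mice, beside 1.54% of all genes. These were Furin, a proprotein convertase (log2 fold change 0.44), and Acer3, a ceramidase (0.58). Both were also called lower with age in WT and in cKO mice, as were the 10 microglia markers. The summed microglia markers were higher in young cKO than in young WT mice (medians of 21400 and 14700 CPM). The part of cell makeup in the ranges of Furin and Acer3 was not tested. In aged mice the ranges did not overlap for 0 of the 34, beside 0.123%.

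**Figure D3:**
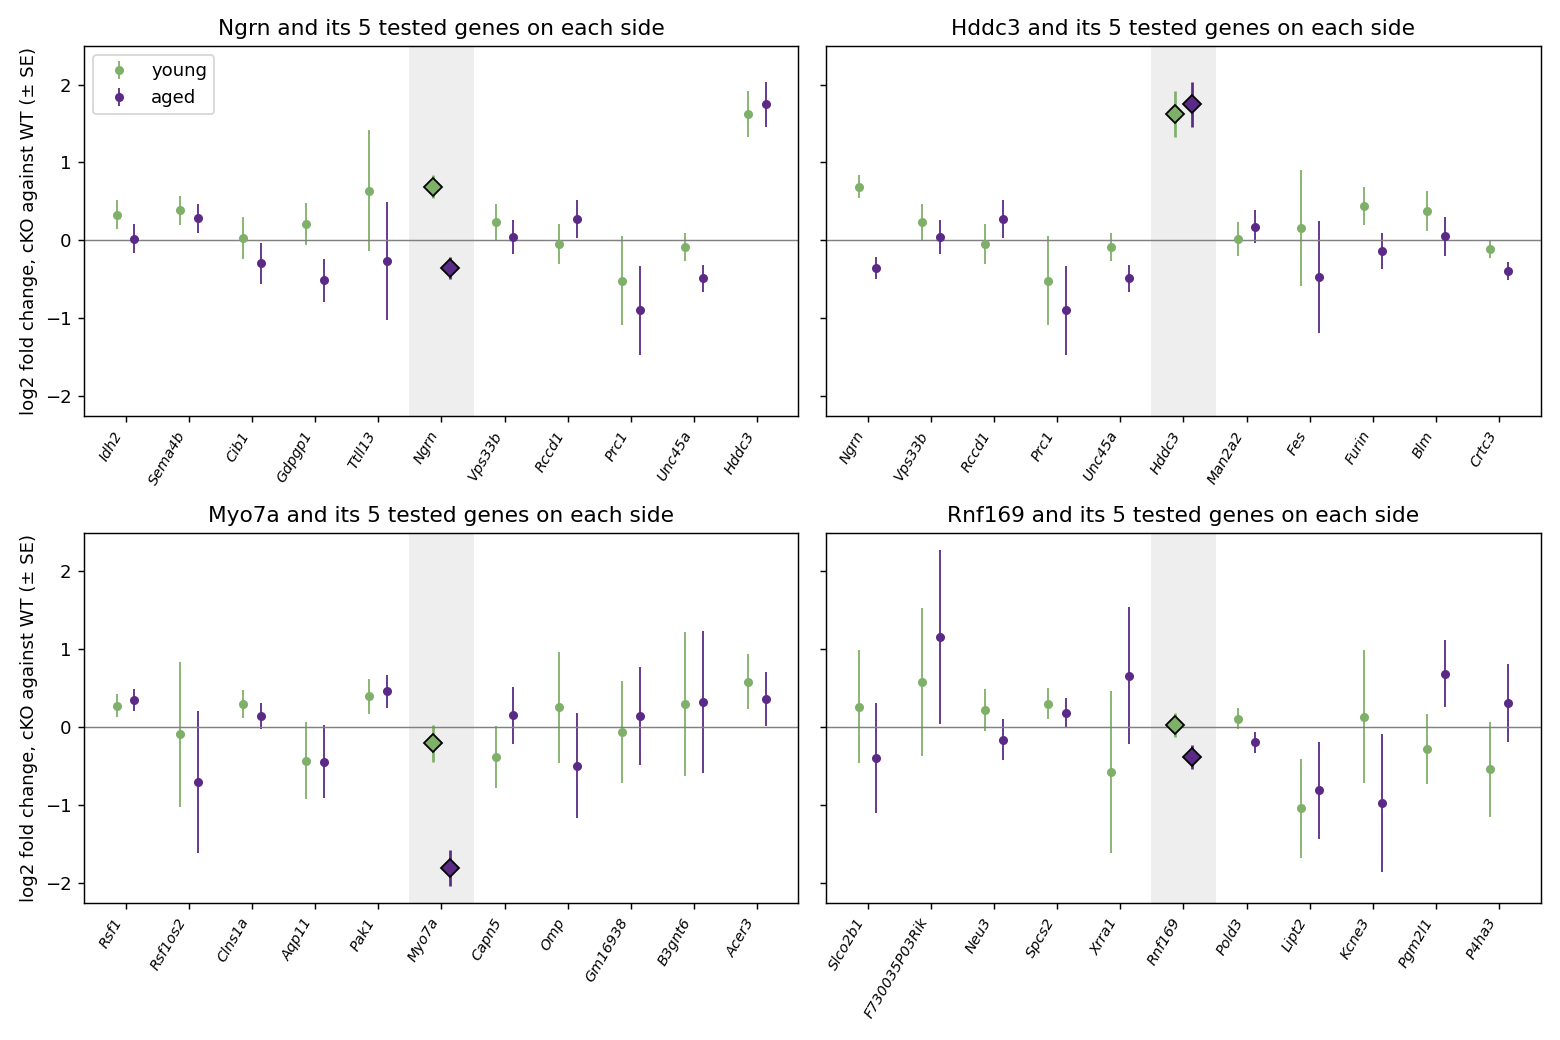
Log2 fold change of cKO against WT (± SE) in young and aged mice for each of the 4 genes (diamonds on grey) and the 5 tested genes on each side in order along the chromosome. Hddc3 at both ages and Myo7a in aged mice lie apart from the genes around them, none of the 34 other genes was called, and Ngrn and Hddc3 appear in each other's panel.

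Ngrn and Hddc3 have 4 tested genes between them. Ttll13, which encodes a tubulin polyglutamylase and ends 394 bases before Ngrn, was near the detection limit at 0 to 1.36 CPM (0 to 22 counts) over all mice. On the other side, Vps33b, a regulator of vesicle fusion, ran from 11.7 to 14.8 CPM in young WT and from 14.2 to 18.0 CPM in young cKO mice, ranges that overlapped (log2 fold change 0.23 ± 0.225 (SE), adjusted p = 1, edgeR). In aged mice the log2 fold change of Vps33b was 0.04 ± 0.221 (adjusted p = 1, same edgeR test). The count of Ngrn was 53.0% to 87.4% of the summed count of Ttll13 and Vps33b in young WT mice, against 82.7% to 122% in the cKO mice of that age, so by this ratio, which needs no scaling of libraries, the young groups of Ngrn overlapped slightly.

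Unc45a, a chaperone of myosins that starts on the opposite strand before Hddc3, ran from 20.4 to 32.8 CPM in young WT and from 21.8 to 29.2 CPM in young cKO mice (log2 fold change −0.09 ± 0.176 (SE), adjusted p = 1, edgeR). In aged mice Unc45a ran from 22.2 to 37.0 CPM in WT and had a median of 16.7 and a highest value of 29.3 CPM in cKO mice, with 5 of the 7 cKO mice below all WT mice (−0.49 ± 0.170, adjusted p = 0.518, same edgeR test). Man2a2, an alpha-mannosidase of N-glycan processing, overlaps the last 1451 bases of Hddc3 on the other strand. It had 104 to 264 CPM in the aged WT and 90.3 to 217 CPM in the aged cKO group, and its log2 fold change was 0.02 ± 0.220 in young and 0.17 ± 0.212 in aged mice (adjusted p = 1 at both ages, edgeR). The kit is not stated to keep strand, so reads of the shared stretch cannot be assigned to Hddc3 or Man2a2. As a share of the summed count of Unc45a and Man2a2, Hddc3 was 1.64% to 2.47% in the WT and 4.16% to 9.42% in the cKO mice of the young group, without overlap. In aged mice the share was 2.50% to 6.90% in WT and 6.19% to 27.4% in cKO mice, so by this ratio the aged groups overlapped.

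Capn5, a calpain protease 2035 bases beyond Myo7a, ran from 9.76 to 54.5 CPM in aged WT and from 10.3 to 46.8 CPM in aged cKO mice (log2 fold change 0.15 ± 0.367 (SE), adjusted p = 1, edgeR). Pak1, a kinase of the actin cytoskeleton on the other side of Myo7a, ran from 56.2 to 112 CPM and from 65.2 to 176 CPM in the same groups (0.46 ± 0.212, adjusted p = 0.768, edgeR). Beside Rnf169, Pold3, a subunit of DNA polymerase delta, had 14.2 to 25.8 CPM in the aged WT and 14.4 to 20.3 CPM in the aged cKO group (−0.20 ± 0.135, adjusted p = 0.981, edgeR), and Xrra1 had at most 19 counts in any mouse. Myo7a was 36.6% to 82.4% of the summed count of Pak1 and Capn5 in the WT and 4.03% to 33.7% in the cKO mice of the aged group, again without overlap. By the same ratio the young mice, whose CPM of Myo7a overlapped, did not, at 134% to 157% in WT and 69.4% to 108% in cKO mice. Pak1, in the denominator of this ratio, ran from 39.1 to 62.6 CPM in young WT and from 62.4 to 81.4 CPM in young cKO mice, with 5 of 6 cKO mice above all WT mice (0.39 ± 0.219, adjusted p = 1, edgeR). For Rnf169 the share of Xrra1 and Pold3 overlapped in young (255% to 429% and 269% to 339%) and aged mice (383% to 1000% and 381% to 724%).

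Over a longer stretch, 132 tested genes other than these lay between the start of Ngrn and the end of Rnf169, a distance of 19.7 Mb, and 0 of them were called by genotype at either age, beside 0.0393% of all genes in young and 0.0491% in aged mice. Their genotype ranges did not overlap for 8 genes (6.06%) in young mice and 1 gene (0.758%) in aged mice, against 1.54% and 0.123% of all genes. In the 13.2 Mb between Rnf169 and Arntl, 7 of 150 genes (4.67%) were called in young and 6 (4.00%) in aged mice. All of these were lower in cKO and in the Trim and Gvin1 clusters. Genotype ranges there did not overlap for 17 genes (11.3%) in young and 4 (2.67%) in aged mice, beside the same shares of all genes. The 17 included genes that were not called, among them Fchsd2, Ppfibp2, Tmem41b and P2ry6. Microglia marker sums were higher in young cKO than in young WT mice, and their part in these young counts was not tested.

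**Figure D4:**
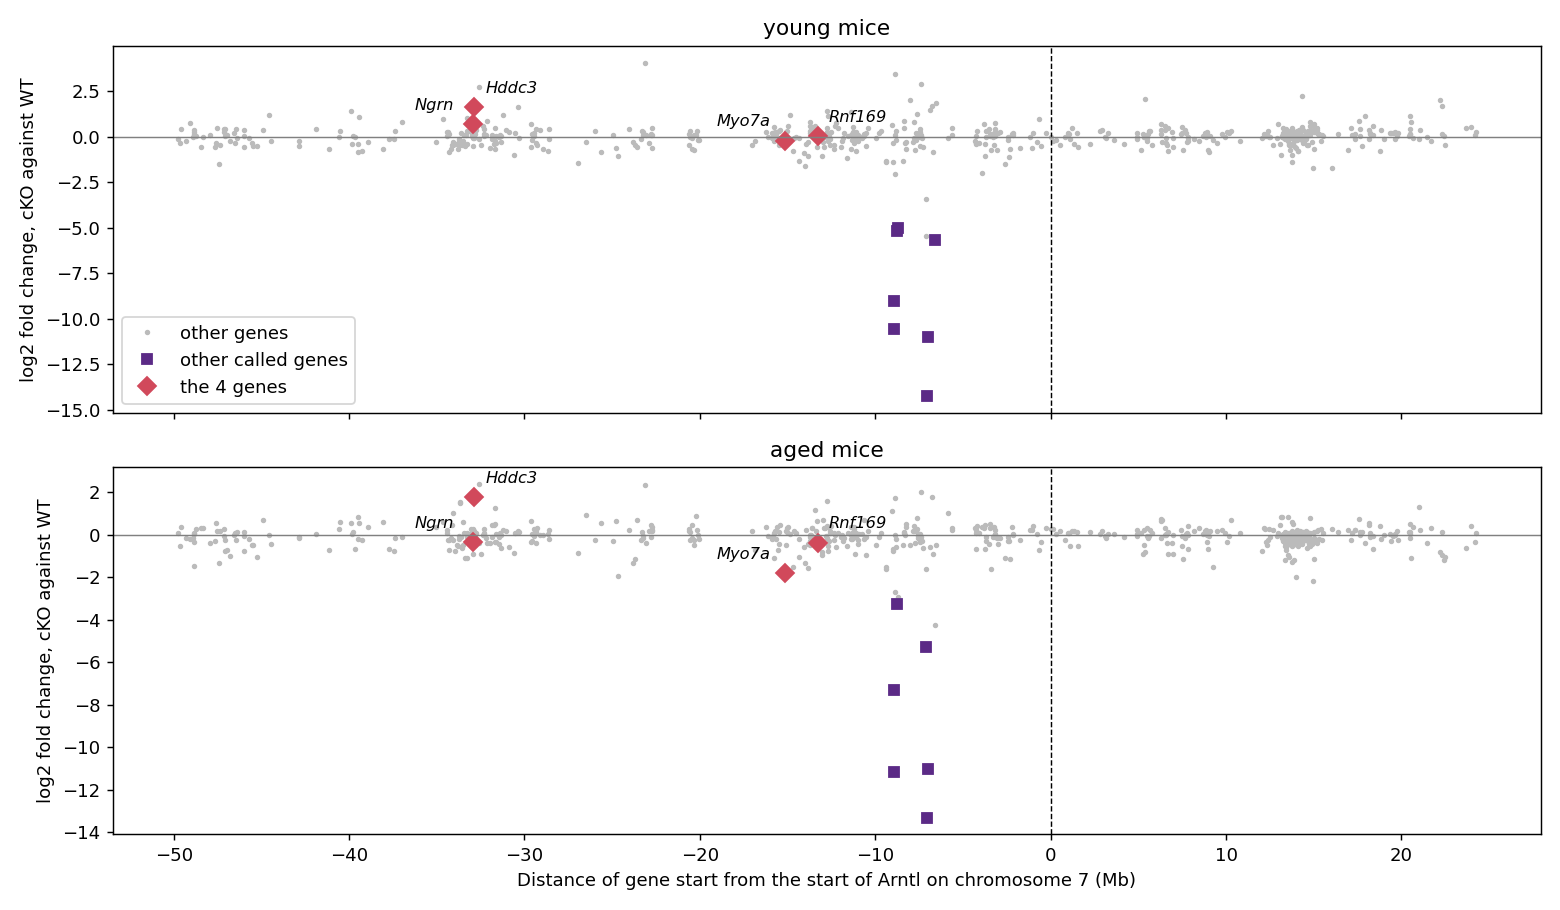
Log2 fold change of cKO against WT in young (top) and aged (bottom) mice against the distance of each gene start from that of Arntl on chromosome 7 (Mb, dashed line at 0). Red diamonds mark the 4 genes, purple squares the other called genes, which lie between 6 and 10 Mb before Arntl, and grey points the rest.

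The change with age, which was not the comparison used to choose the 4 genes, was tested in each genotype. Hddc3 rose with age in both genotypes and Myo7a fell in cKO mice. The fall of Myo7a in WT mice passed the thresholds but was lost under several alternatives, given below. The comparisons share mice with the genotype comparison that chose the genes, so their p-values are not independent of that choice. The levels of microglia, astrocyte, neuron and oligodendrocyte markers given above differed between the same groups. The microglia marker level was fitted as a covariate, and the part of the other cell types was not tested. The summed microglia markers did not overlap between ages (10200 CPM or more in young, 5260 CPM or less in aged mice). An age change fitted with this covariate is therefore an extrapolation and cannot separate age from the microglia marker level. Among all genes, 45.0% were called between aged and young WT and 52.0% between aged and young cKO mice, and among the 4 genes Hddc3 and Myo7a were called in each, a share near that of all genes.

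Hddc3 was higher in aged than in young WT mice by a log2 fold change of 1.31 ± 0.297 (SE, 2.47-fold, adjusted p = 0.00104, edgeR), with 5 of 6 aged mice above all young mice. In cKO mice the log2 change of Hddc3 was 1.43 ± 0.280 (adjusted p = 0.000142, edgeR), with all 7 aged mice above all young mice. With the microglia marker level as a covariate, the log2 changes of Hddc3 were 1.49 in WT and 1.61 in cKO mice, and both were still called (adjusted p = 0.0142 and 0.00416, edgeR).

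In cKO mice Myo7a fell with age, with a log2 fold change of −2.20 ± 0.237 (SE, adjusted p = 8.38e-08, edgeR), with all 7 aged mice below all young mice. In WT mice the log2 change of Myo7a was −0.60 ± 0.239 (adjusted p = 0.0435, edgeR), with 5 of 6 aged mice below all young mice. The WT change lay just past the fold threshold and was lost when any of 6 mice was left out (young WT replicates 3, 5 and 6 and aged WT replicates 3, 4 and 5, log2 changes of −0.58 to −0.52), in 5 of these by the fold threshold alone. With the microglia marker level as a covariate, the log2 change of Myo7a was 0.017 in WT (adjusted p = 0.975, edgeR) and −1.62 in cKO mice (adjusted p = 0.000167, edgeR).

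Ngrn had log2 changes with age of 0.52 ± 0.146 (SE) in WT and −0.52 ± 0.139 in cKO mice (adjusted p = 0.00566 and 0.00276, edgeR), of opposite sign, and both were below the fold threshold and not called. Without young WT replicate 2, the WT change of Ngrn was 0.61 and was called. Rnf169 had a log2 change of 0.45 ± 0.158 in WT (adjusted p = 0.0239, edgeR), also below the fold threshold, and of 0.04 ± 0.152 in cKO mice (adjusted p = 0.867, same edgeR test). Of the 34 genes beside the 4, 15 (44.1%) were called with age in WT and 20 (58.8%) in cKO mice, beside the 45.0% and 52.0% of all genes.

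**Figure D5:**
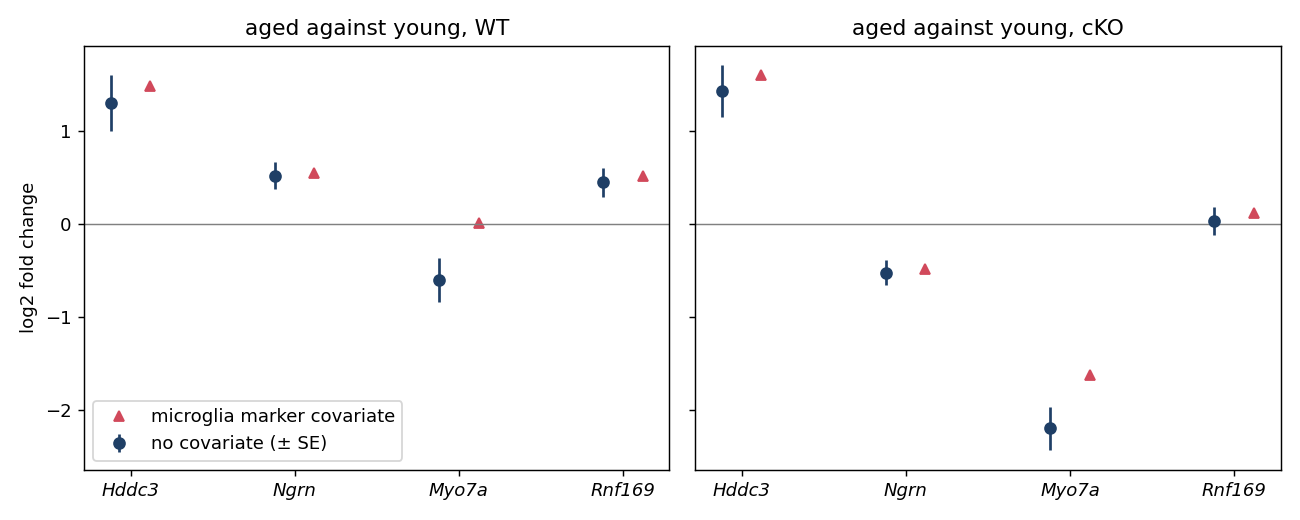
Log2 fold change of aged against young mice for the 4 genes in WT (left) and cKO mice (right), as fitted without a covariate (circles, ± SE) and with the microglia marker level as a covariate (triangles, without error bars). Hddc3 lies above 0 in both genotypes and Myo7a below 0 in cKO mice under both fits, while Myo7a in WT mice is near 0 with the covariate.

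Genes that work with the 4 were then compared by genotype, in lists of 18 clock genes and of 15 to 20 genes for each of the 4. Of the 93 genes measured, 0 were called at either age in edgeR's test, beside 0.0393% of all genes in young and 0.0491% in aged mice. With shares this small, 0 of 93 says little about these lists. An unadjusted p below 0.05 (edgeR) was found for 7 in young and 6 in aged mice, and DESeq2 called 0 and 1. The share of all genes at that unadjusted p is not given, so nothing is read from such counts in these lists. For Hddc3, the list held 20 genes of NADPH supply and ferroptosis, among them the NAD kinases, and their log2 fold changes ran from −1.12 (Slc7a11) to 0.44 (Gclc) in young and from −0.61 (Hmox1) to 0.32 (Acsl4) in aged mice. The most expressed of them, the ferritin subunits Fth1 and Ftl1 and the amino acid transporter subunit Slc3a2, had log2 fold changes of −0.14, −0.11 and 0.26 in young and 0.11, −0.27 and −0.38 in aged mice. The median of that list was −0.12 in young and −0.08 in aged mice, beside 0.03 and −0.02 over all genes.

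For Ngrn, the list held 20 genes of mitochondrial large ribosomal subunit assembly, with medians of 0.20 in young and −0.04 in aged mice. The most expressed of them, the helicase Dhx30 and the ribosomal proteins Mrpl12 and Mrpl3, had log2 fold changes of 0.20, 0.05 and 0.32 in young and 0.25, 0.05 and 0.24 in aged mice. Rpusd4, a pseudouridine synthase of mitochondrial RNA, had the lowest value in aged mice (−0.93, adjusted p = 0.442, edgeR), and DESeq2 called it. For Myo7a, 15 of the 18 Usher proteins and partners listed were measured, with medians of 0.09 and −0.02. Plekhb1, Whrn and Myrip, the most expressed over all mice, had log2 fold changes of −0.48, 0.30 and −0.68 in young and 0.09, 0.15 and −0.23 in aged mice. In young WT and cKO mice Plekhb1 had means of 19.85 and 14.27 CPM, below those of Whrn (132.8 and 163.0 CPM). For Rnf169, 20 genes of ubiquitin signalling at DNA breaks had medians of 0.06 and 0.02, and the most expressed, the ubiquitin ligase Herc2, the deubiquitinase Usp7 and Trp53bp1, had 0.17, −0.01 and −0.02 in young and 0.18, 0.28 and 0.31 in aged mice.

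The clock genes had a median log2 fold change by genotype of −0.29 in young mice, from −0.88 (Nr1d1, the repressor REV-ERBα) to 0.50 (Bhlhe41), with 3 of 18 at an unadjusted p below 0.05. In aged mice the median was −0.0042, from −0.50 (Per1) to 0.34 (Rora), with 0 of 18. The clock genes most expressed over all mice, Tef, Per1 and Rora, had log2 fold changes of 0.02, −0.36 and −0.26 in young mice. In young WT and cKO mice Rora had means of 33.08 and 27.59 CPM, below those of Bhlhe41 (68.68 and 97.37 CPM). With age, 11 clock genes were called higher and 2 lower in WT, and 15 higher and 2 lower in cKO mice. The list for Ngrn held 0 genes called higher with age in either genotype and 3 in WT and 8 in cKO mice called lower. The list for Hddc3 held 7 called higher and 8 lower in each genotype. Of the 15 genes measured for Myo7a, 4 were called higher and 4 lower in WT and 3 higher and 3 lower in cKO mice, and of the 20 for Rnf169, 6 were called higher and 3 lower in each genotype. Over all genes 45.0% were called with age in WT and 52.0% in cKO mice, and the marker levels of several cell types differed between the same mice, whose part in these counts was not tested.

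The genes whose pattern over the 25 mice was most like each of the 4 were taken by Pearson's r of log2 CPM after the mean of each age was subtracted, a measure that includes the genotype difference and shares library depth and cell makeup. For Hddc3 they were Phax (r = 0.824), Mrpl48-ps (0.804), Ndufaf4 (0.766), Erlec1 (0.762) and Calm2 (0.761). Of these, Mrpl48-ps was near the detection limit, with a mean of 0.41 CPM over all mice. For Ngrn they were 2510009E07Rik (0.762), Usp21 (0.723), Tmem18 (0.709), Zfp385a (0.708) and Sdr42e1 (0.693). Those most like Myo7a were Ubtd1 (0.781), Nr1h2 (0.772), Prelid1 (0.754), Wtip (0.745) and Nkiras2 (0.728). Among those most like Rnf169 were Mapk3 (0.769), Irak1 (0.758), Gosr2 (0.748) and Lasp1 (0.725). None of the 4 genes was among the genes most like another.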

How the data were processed

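The values are estimated counts per gene, which the authors made with nf-core/rnaseq 3.8.1 (removal of ribosomal RNA reads, STAR 2.7.10a, Salmon 1.5.2, build GRCm38 per the labels) and deposited as whole numbers without normalization. They left out 2 outlier samples, not analysed here. Their filter asked for over 5 reads in 5 or more samples, and all 20362 genes pass it. The counts of all 25 mice entered 1 quasi-likelihood fit with 4 groups (edgeR 4.0.16, R 4.3.3) after TMM scaling, with adjusted p-values by Benjamini-Hochberg over all genes. A standard error is the size of the log2 fold change divided by the square root of F. Log2 CPM used a prior count of 2. Groups came from the genotype and age labels. Positions are those of GENCODE M21, which held 20217 of the identifiers. The members and gene lists were chosen with earlier results of these data known. Named were the 4 genes, Arntl, the genes on each side of them, the 3 most expressed genes of each list, extremes of a list or any gene called in it, and the 5 genes most like each of the 4, of which 1 is not reported here. Alternatives were DESeq2 1.42.0, RLE factors, a filter of at least 10 counts in at least 6 mice, the groups compared alone, adjusted p below 0.05, 10 genes on each side, the mean log2 CPM of the microglia markers as a covariate, leaving out each mouse and, chosen after the data were seen, the animal number as a block in the young mice. The tests were first tried on simulated counts.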

Additional observations from a re-analysis of the deposited data

Results flagged for a closer look

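In 13 genes (the 4 genes, Arntl and the nearest gene on each side of the 4) each of the 4 groups was searched for a mouse far from the rest, and 7 of the 52 searches found one. The searches share mice and include genes with few counts, so 7 of 52 cannot be set against a chance rate. For Rnf169, young WT replicate 5 was highest of its group at 125 CPM, with the next mouse at 89.0 CPM. The same mouse was highest for Arntl, at 17.5 CPM against 14.8 CPM. Aged WT replicate 6 was highest of its group for Capn5, at 54.5 CPM against 25.5 CPM, and for Man2a2, at 264 CPM against 152 CPM. Unc45a was highest in aged WT replicate 2, at 37.0 CPM against 26.8 CPM. In young cKO mice, Xrra1 was seen in replicate 3 alone, at 0.202 CPM, and Ttll13 was highest in replicate 2, at 1.36 CPM against 0.508 CPM, both on few counts. No mouse of Hddc3, Ngrn or Myo7a was flagged by this search, although aged WT replicate 6 had 80.7 CPM of Myo7a with the next mouse at 57.3 CPM.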

How the results depend on the processing

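Of 120 values under alternatives other than leaving out a mouse, 117 kept their direction and their side of the threshold or, for values without a test, moved by less than the spread between mice. The exceptions were Myo7a in aged against young WT mice, which was 0.017 with the microglia markers as a covariate and −0.56 with at least 10 counts in at least 6 mice, under the fold threshold (adjusted p = 0.0629, edgeR), and the genes of the pathway lists in aged mice, of which DESeq2 called 1 in place of 0. The cause was not tested. Of 500 values without 1 mouse, 491 were kept. Each comparison was refitted without each of the 25 mice, also without mice of groups it did not compare, where little can change. The 491 therefore overstate how stable the values are. In aged against young WT mice, the log2 change ran from −0.72 to −0.52 for Myo7a and from 0.45 to 0.61 for Ngrn. In cKO mice that of Rnf169 ran from −0.01 to 0.14, with its sign changed without aged cKO replicate 3 (−0.006). The pathway genes called in aged mice ran from 0 to 1, the 1 being without aged cKO replicate 5. By genotype, leaving out a mouse gave Hddc3 changes of 1.49 to 1.71 in young and 1.60 to 1.90 in aged mice, and Myo7a −1.99 to −1.62 in aged mice. Taking 10 genes on each side made 64 genes, of which 0 were called at either age. An unadjusted p below 0.05 (edgeR) was found for 4 of the 64 in young and 8 in aged mice. The ranges of the genotypes did not overlap for 5 of the 64 in young mice, beside 1.54% of all genes. In aged mice this held for 0 of them, beside 0.123%. RLE factors moved the median of all genes by at most 0.09. No paired analysis was possible because replicate numbers only follow the order of the samples. The animal number as a block in the 12 young mice was chosen after the data were seen, and its values are among the 120. This fit is informed on genotype by number 63 alone, which held 1 WT mouse. Genes not called in it cannot be taken as unchanged, so its counts of calls are not given. Depth limits Ttll13 and Xrra1, with few counts, and Hddc3 in WT mice.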

Other observations

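Within groups (each group's mean subtracted, 25 mice, log2 CPM), Hddc3 and Ngrn had a Pearson's r of 0.551, and the other pairs of the 4 genes lay between 0.097 and 0.362. These values share library depth and scaling. On the same scale Myo7a had r = 0.618 with the log2 of the summed microglia markers and −0.501 with the oligodendrocyte markers, and it also had 0.69 with B cell markers, 0.608 with T and NK cell, 0.554 with border macrophage and 0.491 with monocyte and neutrophil markers. Hddc3, Ngrn and Rnf169 had 0.073, 0.0713 and 0.131 with the microglia markers. Hddc3 had r = −0.545 with the mural cell markers and −0.467 with the endothelial markers.

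The genes with the lowest r with Hddc3 over the 25 mice, after the mean of each age was subtracted, included Trim5 (−0.892), Gvin1 (−0.891), Trim12a (−0.886) and Gm18853 (−0.843) of chromosome 7, and Rarg (−0.853), a retinoic acid receptor gene of chromosome 15. These genes were named after their values were seen, and Trim5, Gvin1, Trim12a and Gm18853 are among those called lower in cKO libraries.

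Gm15880, 1 of the 64 genes within 10 places of the 4, was also named after its values were seen. Its log2 fold change by genotype was 2.73 in young and 2.38 in aged mice, with an unadjusted p below 0.05 at both ages (edgeR). The ranges of the genotypes did not overlap in young mice and overlapped in aged mice. Gm15880 was not called (adjusted p = 0.843 in young mice, edgeR).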
